A study of Mus musculus with 16 samples.

Results

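The alpha-arrestins examined here were Txnip, Arrdc1, Arrdc2, Arrdc3 and Arrdc4, 5 of the 22180 genes that had a probe set annotated to a single gene symbol on the arrays. They were chosen by symbol, with earlier results of these data known. Each had 1 such probe set, so no choice between probe sets was needed. Expression was measured on Affymetrix whole-transcript arrays in gonadal white adipose tissue of male C57BL/6 mice aged 3 to 4 months, sampled in the morning. The comparison was between 8 samples of mice with free access to food, called fed, and 8 of mice without food for 16 hours, called fasted. No transgene, drug or other manipulation is named for either group. The labels do not state whether every sample is its own mouse, so the p-values reflect only how these samples vary.

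Alpha-arrestins are adaptor proteins with an arrestin fold. Most carry PPxY motifs in the tail that bind the WW domains of NEDD4-family ubiquitin ligases, and through these they direct membrane proteins into endocytosis and degradation. Txnip, the thioredoxin-interacting protein, also binds thioredoxin and promotes the removal of glucose transporters from the cell surface. Txnip and Arrdc4 are textbook targets of the glucose-sensing transcription factors MondoA (gene Mlxip) and ChREBP (gene Mlxipl), which act with their partner Mlx. Arrdc3 is known from cultured cells and mice as an adaptor for beta-adrenergic receptors, and Arrdc1 for the budding of microvesicles at the plasma membrane. Arrdc2 is less studied.

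The sequence just upstream of each gene is shown first, because the glucose-sensing factors recognise a short element there. RefSeq promoter windows of 250 bases before to 50 after the annotated start were found for all 5 members in build GRCm38.p6, 3 of them for Arrdc3, and the windows of the members discussed most are printed below 5′ to 3′ on the gene's own strand. Capitals mark matches on either strand to CACGNG, one arm of a carbohydrate response element, to the whole element (CACGNG and CNCGNG with 5 bases between them), and to TGTTTAC, a forkhead factor site. The windows are chr3:96557707-96558006 on the plus strand for Txnip, chr7:68749189-68749488 on the minus strand for Arrdc4, chr8:70839671-70839970 on the minus strand for Arrdc2 and chr13:80883134-80883433 on the plus strand for Arrdc3.
Txnip: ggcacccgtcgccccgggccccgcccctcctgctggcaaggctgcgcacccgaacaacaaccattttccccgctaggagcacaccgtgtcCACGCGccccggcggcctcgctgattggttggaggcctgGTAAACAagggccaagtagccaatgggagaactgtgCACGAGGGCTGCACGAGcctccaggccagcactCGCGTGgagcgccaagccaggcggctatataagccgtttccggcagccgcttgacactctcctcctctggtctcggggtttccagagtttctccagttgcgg
Arrdc4: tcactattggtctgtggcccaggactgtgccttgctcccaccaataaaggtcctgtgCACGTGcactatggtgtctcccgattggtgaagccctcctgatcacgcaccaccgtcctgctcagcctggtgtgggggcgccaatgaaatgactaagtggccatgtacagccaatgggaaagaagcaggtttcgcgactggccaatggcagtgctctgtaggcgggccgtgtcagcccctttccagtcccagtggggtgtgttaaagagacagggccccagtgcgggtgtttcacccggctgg
Arrdc2: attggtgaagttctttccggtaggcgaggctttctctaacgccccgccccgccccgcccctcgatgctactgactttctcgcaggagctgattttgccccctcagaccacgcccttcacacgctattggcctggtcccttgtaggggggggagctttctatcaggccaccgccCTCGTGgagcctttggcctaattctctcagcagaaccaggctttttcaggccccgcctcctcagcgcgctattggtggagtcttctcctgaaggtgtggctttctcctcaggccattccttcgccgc
Arrdc3: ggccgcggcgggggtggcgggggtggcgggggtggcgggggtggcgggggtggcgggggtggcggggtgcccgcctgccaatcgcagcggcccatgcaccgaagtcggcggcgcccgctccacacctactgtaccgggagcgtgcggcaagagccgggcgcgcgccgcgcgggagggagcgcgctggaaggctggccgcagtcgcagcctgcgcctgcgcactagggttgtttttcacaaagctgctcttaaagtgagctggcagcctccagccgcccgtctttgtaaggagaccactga

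In this set of windows the letters used for the whole carbohydrate element were matched only by Txnip, as CACGAGGGCTGCACGAG at positions -85 to -69. Positions count from the start, where the first base upstream is -1. Other spellings of the element and sequence outside the windows were not searched, so an element in the other members is not excluded. A match was present in 0.426% of 27025 genes with a window. The CACGNG arm alone, which overlaps the whole element, was far more common, in 30.3% of genes, and was matched in the windows of Txnip, Arrdc1, Arrdc2 and Arrdc4. The Arrdc4 match was the palindrome CACGTG at -193 to -188, a form in 8.09% of genes. The forkhead letters, present in 4.05% of genes, were matched by Txnip alone, as GTAAACA at -121 to -115. The letters ACANNNTGT, the core of a glucocorticoid response element, were also matched by Txnip alone at -170 to -162 and are present in 7.90% of genes. CCAAT was found on either strand in the windows of all members but Arrdc1, with 6 matches in that of Arrdc4, and in 41.1% of genes. The cAMP half-site TGACG, present in 23% of genes, was matched only by the downstream window of Arrdc3, chr13:80885845-80886144. These matches describe letters in short windows, and binding was not measured.

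Fasting changed the family unevenly. Arrdc3, Arrdc2 and Txnip rose 3.42-fold, 1.96-fold and 1.45-fold, whereas Arrdc4 was 1.18-fold lower without passing the test and Arrdc1 was level within its error. Changes were tested with limma across all 22180 genes, with calls made where the Benjamini-Hochberg adjusted p was under 0.05. By this rule 3 of 5 members were called higher and 0 lower, where 19.2% of all genes were called, 8.49% higher and 10.7% lower. As the members were chosen with earlier results of these data known, this count is a description and no independent evidence about the family. At an unadjusted p under 0.05, 4 of the 5 members passed, as did 28.8% of all genes. The main comparison had no filter on dim genes. All 5 members were above a linear value of 20 in all 16 arrays, so each also stayed in the alternative with that filter. In bulk tissue, fewer cells of a type and less RNA per cell cannot be told apart.

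**Figure D1:**
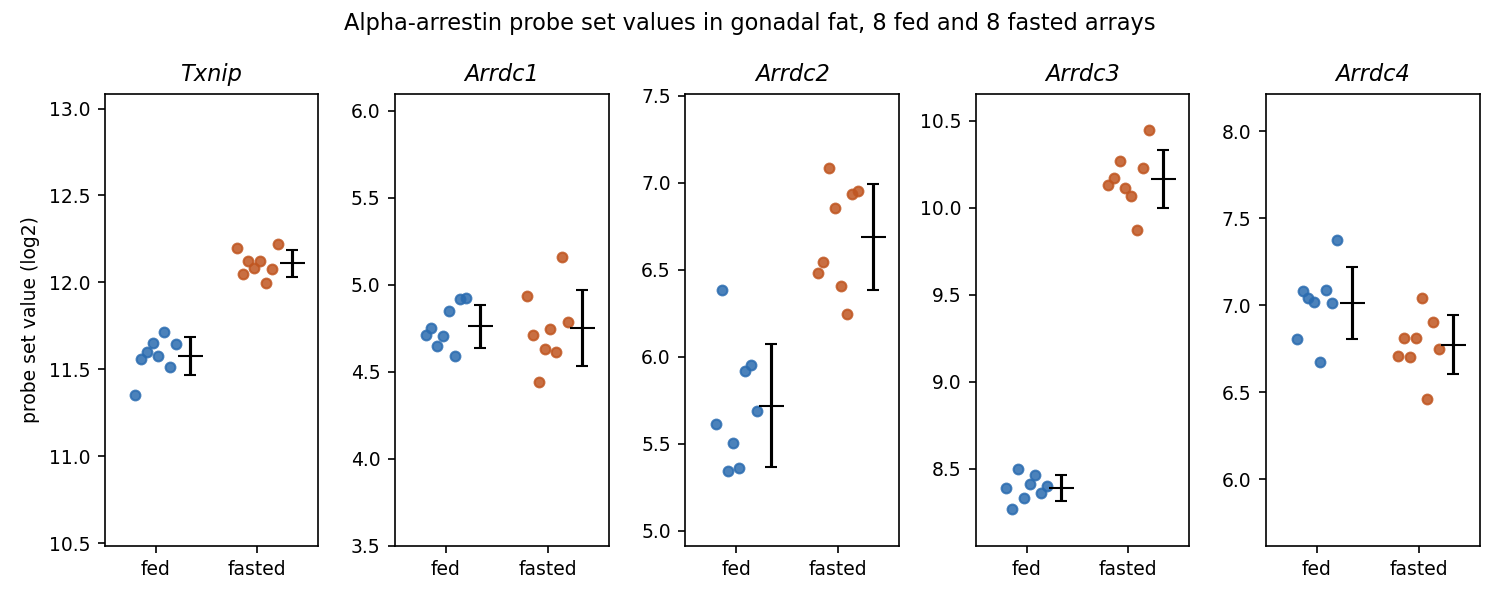
Probe set values (log2, vertical axes, each spanning the same number of log2 units) of the 5 alpha-arrestins in 8 fed (blue) and 8 fasted (orange) arrays, with black bars for the group mean ± SD. The fasted points of Txnip and Arrdc3 lie wholly above the fed points, those of Arrdc2 overlap them through 1 fed array, and those of Arrdc1 and Arrdc4 overlap.

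Arrdc3, whose product links beta-adrenergic receptors to ubiquitin ligases, moved most. In fed arrays its log2 value was 8.27 at the lowest, 8.40 at the median and 8.50 at the highest. In fasted arrays the values were 9.88, 10.15 and 10.45. Every fasted array lay above every fed array, with a gap of 1.38 between the highest fed and the lowest fasted value, and 3.03% of all genes had fasted arrays wholly above the fed ones. The means were 8.39 ± 0.072 and 10.16 ± 0.17 (SD, n = 8 per group), a rise of 1.78 on the log2 scale (SE 0.072, limma adjusted p = 1.47e-11, 95% interval 1.62 to 1.93). By size of rise Arrdc3 stood at place 38 of 22180 genes, and 1.56% of genes were called with a change of at least 2-fold in either direction.

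Arrdc2 rose by a smaller and more variable step. Its fed values ran from 5.34 over a median of 5.65 to 6.38, and its fasted values from 6.24 over a median of 6.70 to 7.08. All but 1 of the fasted arrays exceeded the highest fed array, and all 8 exceeded the fed mean. The fed array that overlapped the fasted range was fed replicate 2, at 6.38, while the other 7 fed arrays reached at most 5.95. The means of 5.72 ± 0.35 and 6.69 ± 0.31 (SD, n = 8) differed by 0.97 on the log2 scale (SE 0.15, limma adjusted p = 1.15e-04, 95% interval 0.65 to 1.29). Its SD was the widest among the members in both groups, against a median SD over all genes of 0.19 in fed and 0.20 in fasted arrays.

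Fed replicate 2 also stood apart in transcripts of motile cilia, a structure of ciliated epithelium and not of fat cells. The mean log2 level of 9 measured cilia genes, among them Foxj1 and Rsph1, was 5.13 in fed replicate 2 and 4.61 in fasted replicate 7, against 2.76 to 3.40 in the other 14 arrays. Of these 9 genes 0 were called between fed and fasted arrays by limma, and 0 passed at an unadjusted p under 0.05. Without these 2 arrays the Arrdc2 rise was 1.03 on the log2 scale (limma adjusted p = 3.93e-05), an alternative added after seeing the data, and without fed replicate 2 alone it was 1.06. When fed replicate 3 was left out with them it was 0.98, although fed replicate 3, at a cilia mean of 2.78, did not stand apart in these transcripts. Within the fed arrays the cilia mean and Arrdc2 had a Pearson r of 0.824 (n = 8, p = 0.0216 by exact permutation) and a Spearman rho of 0.452 (p = 0.267 by exact permutation). After adjustment over 30 relations of members with cell type lists, p was 0.648 and 0.980. When the 2 arrays farthest from the median cilia mean were left out, r was 0.0497, so the relation rests on those arrays.

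**Figure D2:**
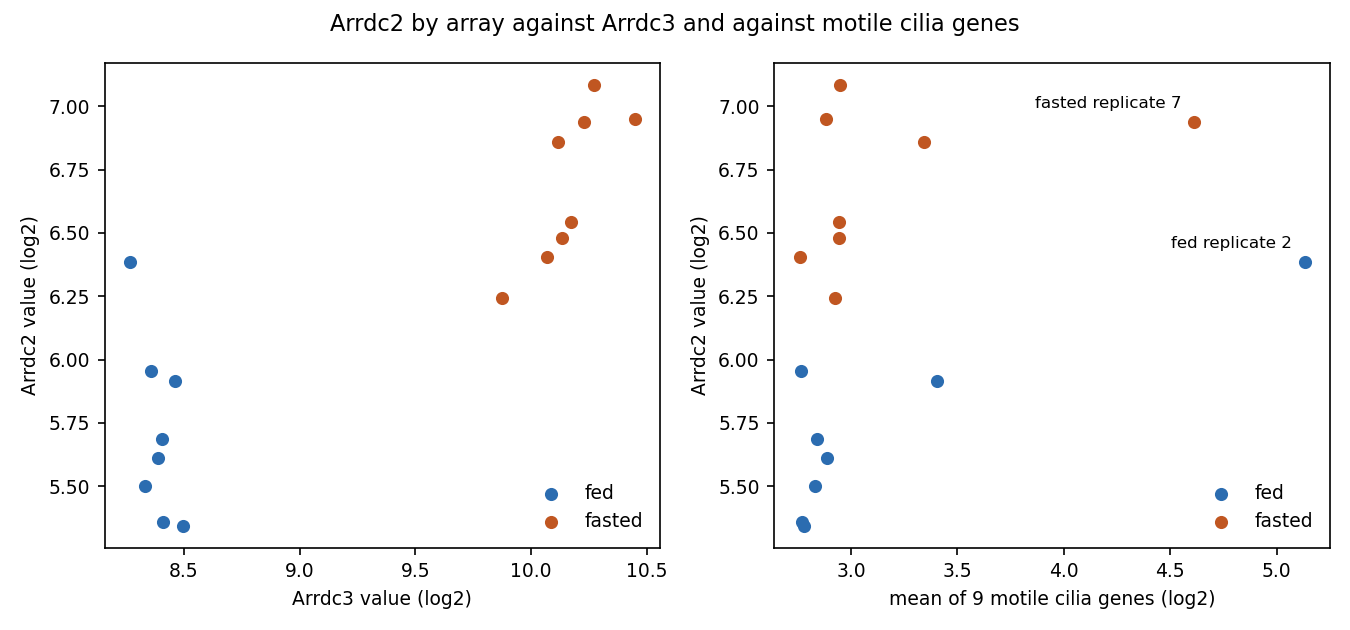
Log2 value of Arrdc2 (vertical axes) in each fed (blue) and fasted (orange) array, against the log2 value of Arrdc3 at left and against the mean log2 value of 9 motile cilia genes at right. Fed replicate 2, the fed array with the highest Arrdc2 value of 6.38, is also the array with the highest cilia mean of 5.13.

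Txnip, which restrains glucose uptake, rose by the smallest step of the called members and with the tightest spread in the fasted arrays. Its fed values were 11.35, 11.59 and 11.72 at the lowest, median and highest array, and its fasted values were 11.996, 12.10 and 12.22. The groups did not overlap, and the gap between them was 0.28 on the log2 scale. The means were 11.58 ± 0.11 and 12.11 ± 0.075 (SD, n = 8), a rise of 0.53 (SE 0.061, limma adjusted p = 3.75e-06, 95% interval 0.40 to 0.66). By size of rise Txnip stood at place 705 of 22180 genes.

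Arrdc4, the paralog that shares glucose control with Txnip, did not follow it. Its log2 values were 6.67, 7.03 and 7.38 at the lowest, median and highest fed array and 6.46, 6.78 and 7.04 in fasted arrays. In 7 of 8 fasted arrays it lay below the fed mean, with the exception of fasted replicate 5 at 7.04, and 4 fed arrays lay above all fasted ones. The means of 7.01 ± 0.21 and 6.77 ± 0.17 (SD, n = 8) gave a log2 difference of -0.24 (SE 0.095, limma adjusted p = 0.0900, 95% interval -0.44 to -0.041). The call depended on the setting. It passed when dim genes were removed first (adjusted p = 0.0442), without fed replicate 5 (adjusted p = 0.0332) and without fasted replicate 5 (adjusted p = 0.04997), and the adjusted p over all limma alternatives ran up to 0.187.

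Arrdc1, the microvesicle adaptor, was level between the groups. Its values ran from 4.59 over a median of 4.73 to 4.92 in fed arrays and from 4.44 over a median of 4.73 to 5.16 in fasted arrays, so the fasted range enclosed the fed one. Its means were 4.76 ± 0.12 and 4.75 ± 0.22 (SD, n = 8), with a log2 difference of -0.0097 (SE 0.090, limma adjusted p = 0.967). The 95% interval ran from -0.20 to 0.18. The highest value, 5.16, was in fasted replicate 7, the fasted array with high cilia transcripts. Fed replicate 2, the array with the highest cilia mean, had an Arrdc1 value of 4.75, near the fed median of 4.73.

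Paralogs were then compared in their response, by taking within each array the log2 value of one gene minus that of another and testing fasted against fed arrays. This compares changes and not levels, and it is unaffected by any shift common to a whole array. It takes log2 changes of different probe sets as comparable, which was not tested. The members lay at different levels, with Txnip at 11.35 to 12.22 and Arrdc1 at 4.44 to 5.16 over the arrays. Of 10 pairs, 9 differed at an adjusted p under 0.05 (two-sided exact permutation test over arrays, Benjamini-Hochberg over the 10 pairs). In 6 pairs the array differences did not overlap between the groups, and every pair with Arrdc3 was among them. The pairs share genes and are not independent. The share over pairs of all genes was not computed, so these counts are no trait of the family. The smallest p that the 12870 splits allow is 1.55e-04. The 6 pairs without overlap reached it, and their adjusted p was 2.59e-04.

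The rise of Arrdc3 exceeded that of each other member. It was larger than that of Arrdc2 by 0.81 on the log2 scale (95% exact interval 0.48 to 1.15) and larger than that of Txnip by 1.24 (1.11 to 1.37), both with adjusted p = 2.59e-04 by exact permutation. The change of Arrdc3 exceeded that of Arrdc1 by 1.79 (1.56 to 2.01) and that of Arrdc4 by 2.01 (1.79 to 2.24), with the same adjusted p by exact permutation. Arrdc2 rose more than Txnip by 0.44 (0.074 to 0.79, adjusted p = 0.0262 by exact permutation), a difference whose adjusted p was 0.0501 without fed replicate 3. Txnip and Arrdc4 differed in response by 0.77 (0.59 to 0.95, adjusted p = 2.59e-04 by exact permutation). The remaining pair of low responders, Arrdc1 and Arrdc4, differed by 0.23 (-0.014 to 0.47, adjusted p = 0.0617 by exact permutation), an interval that includes 0 and also differences of up to 0.47.

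**Figure D3:**
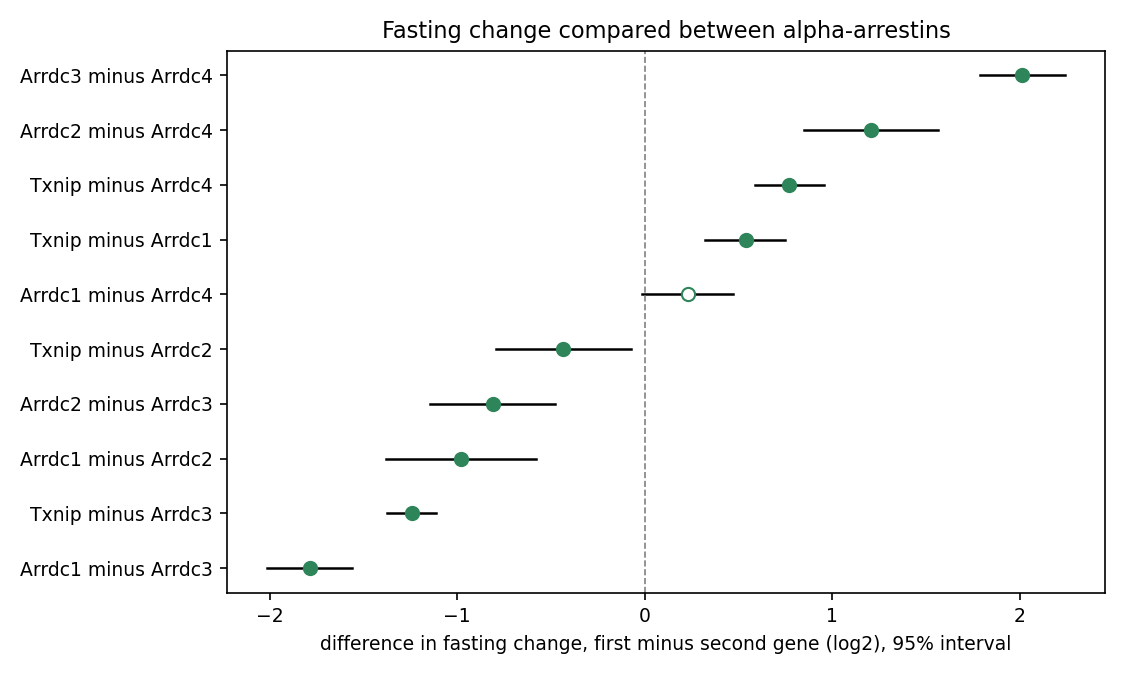
Difference in fasting change between 2 alpha-arrestins, the first gene minus the second (log2, horizontal axis), for the 10 pairs, with 95% intervals from the exact permutation test. Filled points passed an adjusted p under 0.05, and Arrdc1 minus Arrdc4 is the 1 open point.

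Members were also set against each other array by array within each feeding state. Among fasted arrays Arrdc2 and Arrdc3 were high together, with a Pearson r of 0.804 (n = 8, p = 0.00861 by exact permutation) and a Spearman rho of 0.905 (p = 0.00456 by exact permutation). Over the 20 relations computed the adjusted p was 0.172 for r and 0.0913 for rho, so neither passed. Leaving out the 2 arrays farthest from the Arrdc2 median gave r = 0.683. In fed arrays the same pair had r = -0.615 (exact permutation p = 0.104, n = 8) and rho = -0.571 (exact permutation p = 0.151), and r was 0.243 without the 2 farthest arrays. Txnip and Arrdc3 had r = 0.687 among fasted arrays (exact permutation p = 0.0571, n = 8) and rho = 0.548 (exact permutation p = 0.171), and r was -0.212 without the 2 farthest arrays. Of the 20 relations 0 passed after adjustment by either measure, and 1 passed unadjusted by each.

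The genes with the most similar pattern to each member were found from the Pearson correlation of within-group deviations, the value in an array minus its group mean, over 16 arrays, as a description across 22180 candidates. For Txnip they were Kctd18 (r = 0.856), Vwce (0.828) and Erap1 (0.818). For Arrdc3 they were Setdb2 (r = 0.849), Dhtkd1 (0.845) and Olfr1184 (0.826). For Arrdc2 they were Ift57 (r = 0.865), a gene of intraflagellar transport in cilia, Smim5 (0.857) and L3mbtl4 (0.830). For Arrdc1 they were Efcab10 (r = 0.829), Atp6v0a4 (0.796) and Tns3 (0.767), and for Arrdc4 Sft2d2 (r = 0.802), Tmem139 (0.786) and 2900055J20Rik (0.752). No other member of the family was among the 3 nearest genes of any member. Some of these genes were dim. Olfr1184, Efcab10 and L3mbtl4 had mean log2 values of 1.96, 2.06 and 2.86, below the lowest array median of 3.60. Others were not, such as Sft2d2 at 8.60. Some matches were uneven between groups, such as Atp6v0a4 with r = 0.354 in fed and 0.963 in fasted arrays. The 16 arrays include fed replicate 2 and fasted replicate 7, which had high cilia transcripts.

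The glucose-sensing factors upstream of Txnip and Arrdc4 were all called, 1 of them higher and 2 lower. Mlxip, which encodes MondoA, rose from 7.22 ± 0.13 to 7.80 ± 0.21 (SD, n = 8), by 0.57 on the log2 scale (SE 0.089, limma adjusted p = 1.01e-04). Mlxipl, which encodes ChREBP, fell from 8.03 ± 0.32 to 7.17 ± 0.14, a log2 change of -0.86 (SE 0.12, limma adjusted p = 2.65e-05). Mlx, the partner of both, fell from 7.13 ± 0.19 to 6.59 ± 0.22, a change of -0.54 (SE 0.10, limma adjusted p = 7.17e-04). Groups did not overlap for Mlxip and Mlxipl and overlapped for Mlx. Of 16 measured genes known as targets of these factors in liver or other tissues, 8 fell, 1 rose and 7 were not called, with a median of -0.79 against -0.0042 over all genes. Which factors acted on these genes here was not tested. Of those not called, some varied widely, such as Pklr (SD 0.99 in fed and 0.83 in fasted arrays). Others did not, such as Scd1 (SD 0.099 and 0.11). Pklr and Scd1 are named after their values were seen. Fatty acid synthase (Fasn) was 4.76-fold lower, Thrsp 4.43-fold, the glycerol phosphate dehydrogenase Gpd1 4.38-fold and ATP citrate lyase (Acly) 3.72-fold. The 1 that rose was Acacb, an acetyl-CoA carboxylase, by 1.58 on the log2 scale, named after its value was seen. Txnip, which is not counted in that list, was higher in the same arrays.

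**Figure D4:**
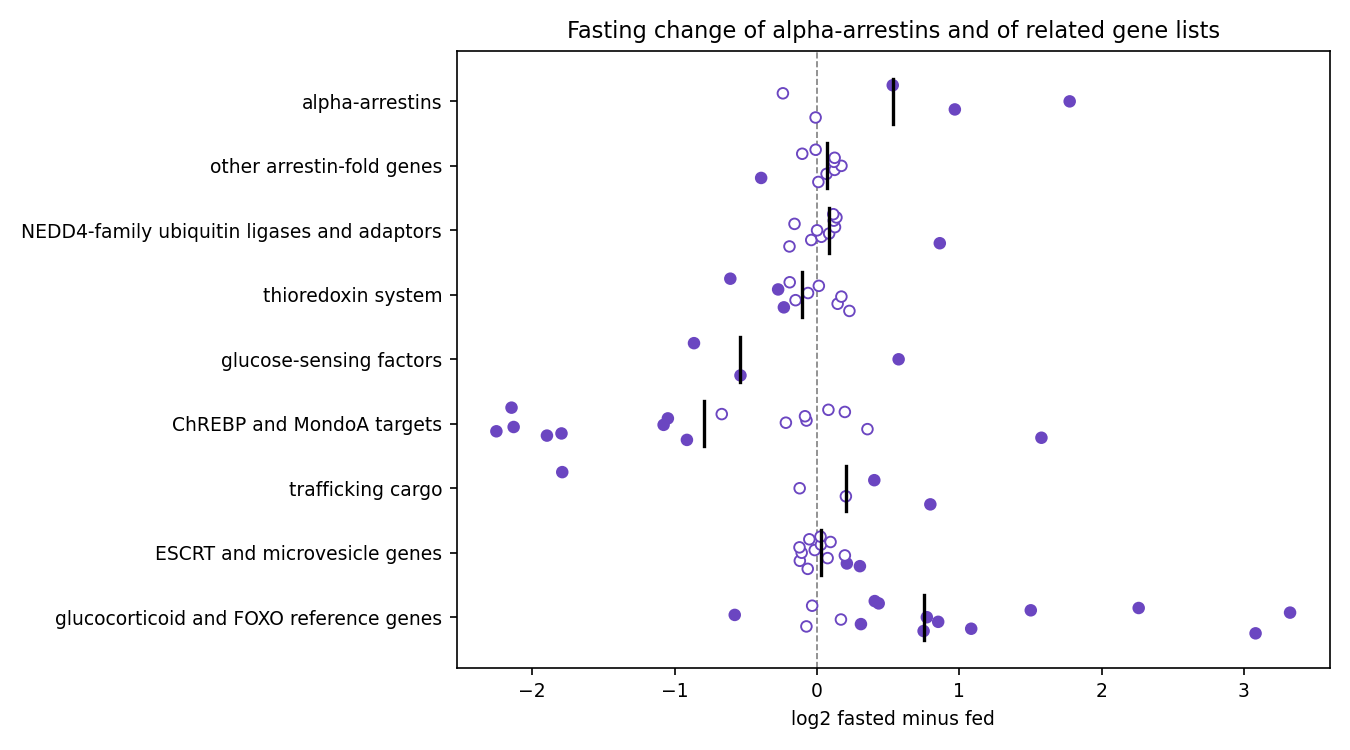
Log2 fasted minus fed (horizontal axis) of each measured gene in the alpha-arrestin family and in 8 related lists, with filled points for genes called by limma at an adjusted p under 0.05 and black bars for the list median. The list medians run from -0.79 for ChREBP and MondoA targets to 0.75 for glucocorticoid and FOXO reference genes, with 0.53 for the alpha-arrestins.

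The genes of proteins that alpha-arrestins work with were counted by list, to be read against the 19.2% of all genes called, and no list was tested as a whole. Of 11 measured NEDD4-family ligases and their adaptors 1 rose, none fell and 10 were not called, with a median log2 change of 0.085. The 1 that rose was Hecw2, by 0.86 on the log2 scale (SE 0.17, limma adjusted p = 8.89e-04), with no overlap between groups. Of 13 ESCRT and microvesicle genes 2 rose and none fell, with a median of 0.025. The 2 were Chmp4b, by 0.30 (SE 0.068, limma adjusted p = 0.00323), and Hgs, by 0.21 (SE 0.056, limma adjusted p = 0.0109). Which of the 13 encode proteins that Arrdc1 recruits was not examined.

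In a list for the thioredoxin system 3 of 10 measured genes fell and none rose, with a median of -0.11. The list also counts Nlrp3, an inflammasome gene and no enzyme of this system. It was not called (log2 change 0.23) and is named after its value was seen. The reductase Txnrd3 fell by 0.61 on the log2 scale (limma adjusted p = 2.15e-04), the peroxiredoxin Prdx2 by 0.23 (adjusted p = 0.00731) and mitochondrial thioredoxin (Txn2) by 0.27 (adjusted p = 0.0397). The Prdx2 call was lost when array medians were subtracted (adjusted p = 0.0827), and the Txn2 call was lost there (0.171), with repeated quantile normalization (0.0732), with all probe sets tested (0.0695) and without any 1 of 12 arrays (0.05003 to 0.0833). The call held without fed replicate 2 or 6 or fasted replicate 5 or 8. Cytosolic thioredoxin (Txn1), the partner that Txnip binds, had a log2 change of -0.063 (SE 0.072, adjusted p = 0.652), named after its value was seen.

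Of 5 measured membrane proteins known as cargo of alpha-arrestins or of their ligases, 2 rose and 1 fell. The insulin-responsive glucose transporter Slc2a4 fell by 1.79 on the log2 scale (SE 0.11, limma adjusted p = 1.67e-09). The insulin receptor Insr rose by 0.80 (SE 0.087, limma adjusted p = 2.43e-06). The basal glucose transporter Slc2a1 rose by 0.40 (SE 0.12, limma adjusted p = 0.0223), but its other probe set had a log2 change of 0.045 (adjusted p = 0.837), and with the replicate number as a block the adjusted p was 0.0528. The beta-adrenergic receptors were not analysed here. Among 9 other measured genes with an arrestin fold, 1 fell and none rose. It was Arrb1, a beta-arrestin that desensitises G-protein-coupled receptors, by 0.39 (SE 0.096, limma adjusted p = 0.00609). Arrdc5, the remaining gene named as an alpha-arrestin, was at 2.16 ± 0.13 in the fed and 2.29 ± 0.13 in the fasted group (log2, SD, n = 8, adjusted p by limma 0.303), and is named after its value was seen. Both Arrdc5 means lay below the lowest array median of 3.60, so the lack of a call says little.

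For scale, a reference list held 15 genes known as glucocorticoid or FOXO targets or factors. It was drawn up with earlier results of these data known, so its count is a description and no independent evidence of a direction. Of these 11 rose, 1 fell and 3 were not called, with a median of 0.75 on the log2 scale. Pdk4 rose 10.01-fold, Ddit4 8.46-fold, Sgk1 4.79-fold and Per1 2.83-fold. The 3.42-fold rise of Arrdc3 lay between those of Sgk1 and Per1. The 1 that fell was the glucocorticoid receptor itself, Nr3c1, with a change of -0.58 (SE 0.056, limma adjusted p = 5.00e-07), named after its value was seen.

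Markers of the labelled tissue were present, with Fabp4 at 12.52 ± 0.085 and 12.58 ± 0.090 and Cidec at 12.27 ± 0.10 and 12.52 ± 0.064 in fed and fasted arrays (log2, SD, n = 8). The mean log2 level of 10 adipocyte genes was 10.1 to 10.4 in fed and 9.82 to 10.2 in fasted arrays, and 3 of them rose and 2 fell. Pnpla2, Plin4 and Cidec rose by 0.61, 0.35 and 0.25 on the log2 scale (limma adjusted p = 4.25e-06, 0.00303 and 0.00470). Lep and Plin1 fell by 1.93 and 0.84 (limma adjusted p = 1.31e-04 and 6.95e-07). The mean of 10 macrophage genes was 8.43 to 8.68 and 8.55 to 9.10, with 4 higher and 1 lower, that of 8 endothelial genes 8.41 to 8.85 and 8.64 to 8.98, with 3 higher and none lower, and that of 12 liver genes 5.56 to 8.98 and 5.89 to 8.33, with 1 higher and none lower. The mean of 7 stromal progenitor genes was 8.87 to 9.06 in fed and 8.68 to 9.29 in fasted arrays. Of these genes 2 were called lower, Cd34 by 0.52 and Lum by 0.68 on the log2 scale (limma adjusted p = 2.28e-05 and 0.00468). The other 5 were not called, among them Pdgfra with a log2 change of 0.24 and Pi16 with -0.25. The median log2 change of this list was 0.11. The mean of 8 mesothelial genes was 6.90 to 7.41 and 6.24 to 7.59, with none higher and 1 called lower, Krt19 (log2 change -0.55, limma adjusted p = 0.0487). The Krt19 call was lost under 20 of 29 alternatives, with adjusted p up to 0.143, and among left-out arrays it held only without fed replicate 6 or fasted replicate 1, 2 or 5. The mean of 8 skeletal muscle genes was 3.04 to 3.64 and 3.37 to 3.76. Among them the skeletal actin Acta1 rose 6.35-fold (limma adjusted p = 5.64e-07), and the other 7 were not called. Pnpla2, Plin4, Lep, Plin1, Cd34, Lum, Krt19 and Acta1 are named after their values were seen. Of 7 T and B cell genes, 8 epididymal epithelium genes and 1 red blood cell gene, 0 were called by limma and 0 passed at an unadjusted p under 0.05. The part of cell composition in the changes of the alpha-arrestins was not tested. With the liver mean as a covariate the rises of Arrdc3, Arrdc2 and Txnip were 1.78, 0.97 and 0.53 on the log2 scale. The liver list had a median log2 change of 0.020 between the groups, so this covariate could hardly move the rises. It does not bear on the other cell types, whose means were not used as covariates.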

How the data were processed

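The authors deposited 1 table of log2 probe set values for 16 arrays. RMA, which corrects background, normalizes between arrays and summarises probes, is named in the submitters' processing notes, with no version or filter stated (not given in the sources used here). That they are log2 was inferred from their range. RMA hides a shift shared by most transcripts, and no batch was modelled, as none is named. The number of arrays limits the precision.

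Of 41345 probe sets, 23521 had a single symbol and gave 22180 genes, with the highest mean over 16 arrays taken where a gene had several. A further 1814 had several symbols and 16010 were unnamed. No further normalization or filter was applied. Fasted was compared with fed in limma 3.58.1 (R 4.3.3, group as the only term), after a test on simulated data. Exact tests were run in Python 3.11.15 and figures drawn with matplotlib 3.10.9. The alternatives covered scaling, filtering, weights, the replicate block, probe sets, left-out arrays and a liver covariate.

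Genes named were the members, the 3 nearest genes of each, up to 4 called genes of each list by size of change (or the gene with the lowest p), every glucose-sensing factor and up to 2 abundant markers. Members and lists were chosen with earlier results of these data known.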

Additional observations from a re-analysis of the deposited data

Results flagged for a closer look

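One further probe set, 17408067, is annotated to Txnip together with Gm15441 and was left out of the comparison because it names several genes. It averaged 5.05 ± 0.17 (log2, SD, n = 8) when fed and 5.74 ± 0.18 when fasted, 0.69 higher in fasted arrays (SE 0.091, limma adjusted p = 4.71e-05 over 41345 probe sets, a test added after seeing the data). The fed arrays reached at most 5.25 and the fasted arrays at least 5.49, so the groups did not overlap. Which of the annotated genes it measures was not tested, and it is not counted for Txnip.

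In 2 of 72 groups of 8 arrays looked at for 36 named genes, 1 array lay far from its neighbours, where chance gives about 1 in 20. Fed replicate 1 had a Mlxip value of 7.51 on the log2 scale, against at most 7.24 in the other fed arrays. Fed replicate 2 had an Arrdc5 value of 2.44, against at most 2.21 in the other fed arrays. These Arrdc5 values all lay below the lowest array median of 3.60.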

How the results depend on the processing

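The rises of Txnip, Arrdc2 and Arrdc3 kept their direction and their side of the threshold under all 30 alternatives tried for each, with log2 changes of 0.48 to 0.57, 0.91 to 1.06 and 1.73 to 1.82. The difference for Arrdc1, never called, turned positive with array medians subtracted (0.030), cyclic loess (0.037) and repeated quantile normalization (0.053), and ran from -0.068 to 0.035 when arrays were left out in turn. Arrdc4 stayed lower in all settings. Its log2 difference of -0.24 passed with the filter on dim genes, where 10832 genes were tested (adjusted p = 0.0442), and by an unadjusted exact permutation test (p = 0.0221, difference -0.24), and it ran from -0.29 to -0.19 with arrays left out. Arrdc1 minus Arrdc4 passed with cyclic loess (0.25, adjusted p = 0.0443) and repeated quantile normalization (0.27, adjusted p = 0.0384), and without fed replicate 5 (adjusted p = 0.0185), fasted replicate 3 (0.0443) or fasted replicate 5 (0.0356). It ran from 0.19 to 0.29 with arrays left out. Txnip minus Arrdc2 ran from -0.53 to -0.38 with arrays left out. The causes were not tested. Over all genes 4251 were called, 1883 higher and 2368 lower, and 2086 higher and 1731 lower with array medians subtracted, which moves the median change of all genes from -0.0042 to 0.036. Counts of calls ran from 3817 to 4756. The labels do not say whether the replicate numbers pair the arrays. Same-numbered fed and fasted arrays had correlations of deviations between -0.22 and 0.22, and 3 of 16 arrays correlated best with their own number. Such correlations over all genes cannot exclude a pairing. With the replicate block 3829 genes were called, and the calls of the 5 members and of the 10 pairs did not change. An exact permutation test over all genes was not run.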
